A study of Mus musculus with 12 samples.

Results

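Group 2 innate lymphoid cells (ILC2s) that lack LAIR-1 at the surface were set against ILC2s that carry it, in RNA sequencing of 6 libraries: LAIR-1- libraries 7, 8 and 10 and LAIR-1+ libraries 1, 2 and 3. These are 6 of the 12 libraries of the series, chosen by the label of the sorted fraction and by the GH191105 tag that all 6 share. Both fractions came from lungs of wild-type (WT) C57BL/6 mice aged 8 weeks that had been given rmIL-33 through the nose in 3 doses of 0.5 µg. After the sort, both were kept for 24 hours with rmIL-2 and rmIL-7, each at 10 ng per mL. No gene was deleted in either fraction. How surface LAIR-1 was gated is not given in the sources used here, and neither is whether the replicates are separate animals or whether the fractions pair. The p-values therefore measure the spread between these samples, which may be technical.

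ILC2s are lymphocytes of barrier tissues that carry no antigen receptor. They respond to alarmins such as IL-33, which epithelial cells release on damage, and make type 2 cytokines such as IL-5 and IL-13. Their activity is also set by neuropeptides, lipid mediators, costimulatory receptors and interferons, the last of which restrain them. LAIR-1 binds collagens and carries inhibitory tyrosine motifs in its tail. Once phosphorylated by Src-family kinases, those motifs recruit the phosphatases SHP-1 and SHP-2 and the kinase CSK.

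Library totals ran between 18885002 and 28290487 estimated counts in LAIR-1- libraries, and between 21143686 and 26480557 in LAIR-1+ libraries. Levels below are CPM, counts scaled to library size, listed in the order 7, 8, 10 for LAIR-1- and 1, 2, 3 for LAIR-1+. A library is also called by its number alone. Log2 CPM correlated at 0.980 to 0.984 between libraries of 1 fraction and at 0.970 to 0.977 between fractions. The first principal component, with 38.0% of the variance, separated the fractions. The second, with 18.9%, set LAIR-1- 8 and LAIR-1+ 3 apart from the other 4 libraries. The ILC2 genes Gata3 and Il1rl1, which encodes the IL-33 receptor, were strongly expressed in both fractions. Gata3 had 1111, 1197 and 1121 CPM in LAIR-1- and 1244, 1281 and 1284 CPM in LAIR-1+ libraries, and Il1rl1 had 715, 617 and 777 against 726, 835 and 658 CPM. Neither passed the test.

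Lair1 transcript followed the sort. Lair1 (protein coding, mm10 chromosome 7, 4003402 to 4063204, minus strand) had 1.10, 0.577 and 1.95 CPM in LAIR-1- libraries and 8.71, 12.4 and 12.2 CPM in LAIR-1+ libraries. Every LAIR-1- library was below every LAIR-1+ library, with means of 1.21 ± 0.692 and 11.1 ± 2.07 CPM (± SD, n = 3 each). The log2 fold change, LAIR-1- over LAIR-1+ here and below, was -3.14 (SE 0.34, 95% interval -3.87 to -2.40, adjusted p 0.000346 by the quasi-likelihood F test of edgeR). The list of LAIR-1 signalling partners had 13 tested genes, Lair1 itself among them. Of these, Lair1 and Lyn passed (15.4%), against 4.01% of all 14261 genes tested. The sort was on surface LAIR-1, so Lair1 checks the labels, and Lyn was the only partner that passed. Lyn, a Src-family kinase that phosphorylates inhibitory receptors, had 75.8, 61.9 and 68.9 CPM in LAIR-1- and 109.5, 106 and 96.6 CPM in LAIR-1+ libraries (log2 fold change -0.60, SE 0.09, adjusted p 0.00348). Its ranges did not overlap. The phosphatase genes Ptpn6 (SHP-1) and Ptpn11 (SHP-2) and the kinase gene Csk had log2 fold changes of -0.15, -0.07 and -0.16, with adjusted p of 0.509, 0.866 and 0.382.

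The fractions differed in many genes, mostly by modest amounts and more often downward. Of 14261 genes tested, 572 (4.01%) passed an adjusted p of 0.05, 185 higher (1.30%) and 387 lower (2.71%) in LAIR-1- cells. The median size of change among them was 1.66-fold, and 197 changed at least 2-fold. The ranges of the fractions did not overlap for 568 of the 572, and for 2989 (20.96%) of all genes tested. Separate ranges, where given below, therefore add little to a call. Leaving out library 7, 1 or 2 left 374, 333 or 369 genes. In every one of the 6 fits that left out 1 library, 256 genes passed (1.80%), 82 higher (0.575%) and 174 lower (1.22%). A gene that rose or fell below is one of those 256 unless the text says which library its call needs. "Held" refers to the same condition. Groups of related genes are given as counts of the members tested. Those counts compare with the 4.01% of all genes tested that passed, 1.30% higher and 2.71% lower. The lists were chosen with earlier results of these data known, and over all lists together 207 of 1454 genes tested passed. Medians of the groups compare with a median log2 fold change of 0.01 over all genes tested.

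**Figure D1:**
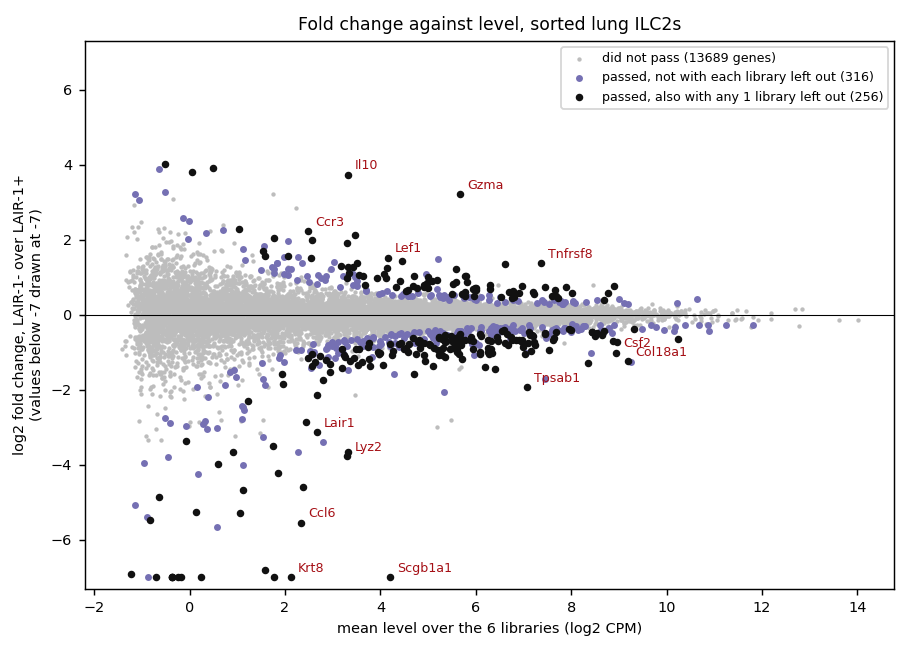
Log2 fold change, LAIR-1- over LAIR-1+ (vertical axis), against the mean level over the 6 libraries in log2 CPM (horizontal axis), 1 point per gene. Black points are the 256 genes that passed with any library left out, violet the other 316 that passed and grey the rest. Most black points lie within 2 log2 units of 0, with a tail of low-level genes far below it.

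Part of that tail belongs to transcripts of other cell types. Scgb1a1, the secretory protein of club cells in the airway, had no count in any LAIR-1- library and 3.13, 76.8 and 28.9 CPM in LAIR-1+ libraries. The epithelial keratin Krt8 also had no count in LAIR-1- libraries, against 7.67, 8.63 and 8.80 CPM in LAIR-1+ libraries. The keratin Krt19, with no count in LAIR-1- libraries either, had 3.17, 9.42 and 6.79 CPM in LAIR-1+ libraries. Against a floor of 3 counts over the LAIR-1- group, Scgb1a1 was at least 847-fold lower, Krt8 at least 187-fold and Krt19 at least 148-fold lower in LAIR-1- cells. That floor covers counting error only. The whole epithelial list summed to 30.5 to 37.0 CPM in LAIR-1- libraries and 45.9 to 141 CPM in LAIR-1+ libraries. Of its 11 tested members, 7 were lower and Epcam was higher, and 4 of these 8 held, all of them lower. With library 10, 2 or 3 left out, 5, 4 or 5 passed. Epcam, which made up most of the sum in LAIR-1-, had 28.7, 24.04 and 31.6 CPM in LAIR-1- and 20.7, 18.8 and 19.9 CPM in LAIR-1+ libraries. Myeloid transcripts went the same way. Lyz2, lysozyme of macrophages and neutrophils, had 2.47, 1.84 and 0 CPM in LAIR-1- and 22.6, 11.1 and 20.6 CPM in LAIR-1+ libraries. Chil3, a product of alveolar macrophages, had 6.58, 27.8 and 0 against 31.9, 70.2 and 128 CPM and did not pass (adjusted p 0.121). The myeloid list summed to 45.9 to 75.8 CPM in LAIR-1- and 111 to 220 CPM in LAIR-1+ libraries, and 3 of its 11 tested members were lower, of which Lyz2 held. With LAIR-1- 10 left out, 1 member passed. In bulk RNA, fewer cells of a type and less RNA per cell cannot be told apart. LAIR-1- 7 stood apart in immunoglobulin transcripts, with Ighm at 23.8 CPM and Igkc at 17.9 CPM, against at most 1.32 CPM in each other library. The part of these transcripts in the results below was not tested. Some genes that such cells express strongly are marked where they occur. The marking is not complete, so reads of unmarked genes may also come from such cells.

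**Figure D2:**
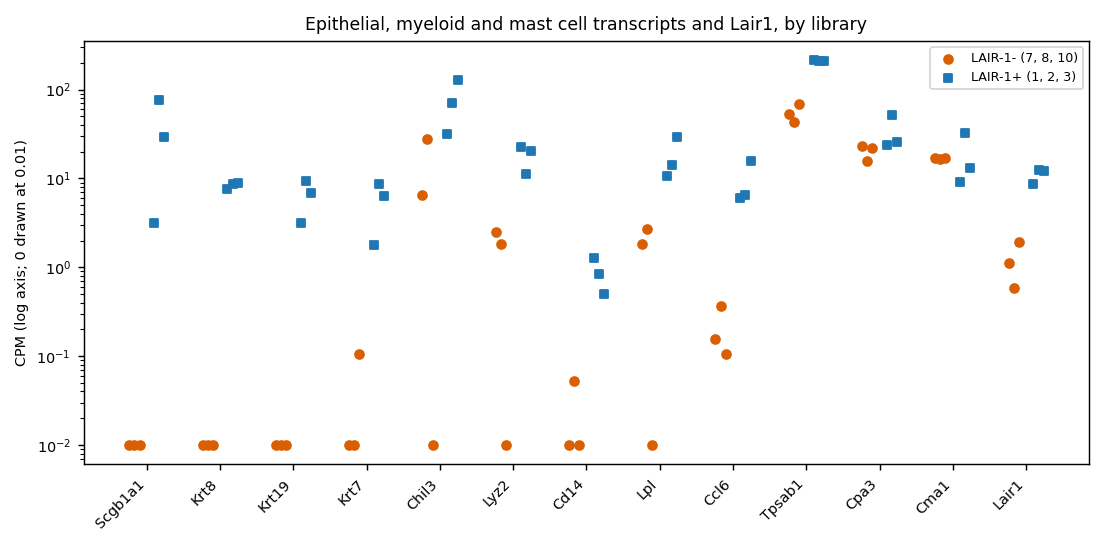
Level in CPM on a log axis (values of 0 drawn at 0.01) of epithelial (Scgb1a1 to Krt7), myeloid (Chil3 to Ccl6) and mast cell (Tpsab1 to Cma1) transcripts and of Lair1, 1 point per library. Orange circles are LAIR-1- and blue squares LAIR-1+ libraries. Epithelial points of LAIR-1- lie at or near 0 and myeloid ones low apart from Chil3, while Cpa3 and Cma1 show no such gap.

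By count, interferon-induced genes were the group with the most members lower in LAIR-1- cells. By share of members tested, 29.9% were lower, against 2.71% of all genes tested. The shares were larger for the shorter lists of epithelial markers (63.6%) and chemokines (45.5%). The interferon-induced list was chosen with earlier results of these data known, so its shares and direction depend in part on that choice. It leaves out Ifitm1, Ifitm2 and Ifitm3, which passed as higher and are given below. Of 77 tested, 23 were lower and 0 higher by edgeR, 73 had a negative log2 fold change, and the median was -0.57. At an unadjusted p under 0.05, 50 passed, 1 of them higher, and DESeq2 and limma-voom called 26 and 25. Of the 23, 9 held: Ddx58, Usp18, Parp12, Ifi27, Slfn2, Gbp2, Gbp7, Ly6e and Ly6c1. Leaving out LAIR-1- 10 brought the count to 10, leaving out LAIR-1+ 1 to 9, and leaving out library 8 or 2 to 13. Gbp7 (chromosome 3, 142530342 to 142550149), a guanylate-binding protein that acts on vacuoles of intracellular pathogens, had 57.3, 47.98 and 53.7 CPM in LAIR-1- and 130.3, 105 and 89.96 CPM in LAIR-1+ libraries. Its log2 fold change was -1.03 (SE 0.13, adjusted p 0.000719), and the ranges did not overlap. Ddx58, which encodes the RNA sensor RIG-I, had 49.7, 37.1 and 46.7 against 91.1, 102 and 81.7 CPM (log2 fold change -1.04, SE 0.12, adjusted p 0.000503). Parp12, an ADP-ribosyltransferase, had 19.05, 12.2 and 16.6 against 33.8, 35.5 and 25.98 CPM (-0.99, SE 0.17, adjusted p 0.00651). The level differed within LAIR-1+ as well as between fractions: LAIR-1+ 1 was high and LAIR-1+ 3 low for most of the GTPases. Gbp2 had 17.5, 9.13 and 12.5 CPM in LAIR-1- and 52.8, 41.6 and 22.1 CPM in LAIR-1+ libraries. Irgm1, an immunity-related GTPase of autophagy, had 113, 74.5 and 76.2 against 243, 181 and 109 CPM. Its groups overlapped, and its edgeR adjusted p of 0.0352 became 0.118 or 0.121 with LAIR-1- 8 or 10 left out, and 0.156 or 0.109 with LAIR-1+ 1 or 2 left out.

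The interferon-induced GTPases and sensors that were lower include genes whose promoters hold the binding letters of interferon-activated factors, and 4 windows are shown for that reason. Each is the RefSeq promoter window on GRCm38.p6, 250 bases before to 50 after the start site, read 5′ to 3′ on the gene's strand. Capitals mark matches to GAAANNGAAA on either strand, the core of the interferon-stimulated response element.
Gbp2 (chr3:142620413-142620712, plus strand): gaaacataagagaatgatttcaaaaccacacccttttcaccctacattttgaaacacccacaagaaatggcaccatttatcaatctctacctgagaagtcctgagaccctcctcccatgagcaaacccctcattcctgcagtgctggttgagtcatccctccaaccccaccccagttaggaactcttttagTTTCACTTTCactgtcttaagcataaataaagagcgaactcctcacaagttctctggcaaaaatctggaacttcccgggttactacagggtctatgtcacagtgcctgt
Gbp7 (chr3:142530086-142530385, plus strand): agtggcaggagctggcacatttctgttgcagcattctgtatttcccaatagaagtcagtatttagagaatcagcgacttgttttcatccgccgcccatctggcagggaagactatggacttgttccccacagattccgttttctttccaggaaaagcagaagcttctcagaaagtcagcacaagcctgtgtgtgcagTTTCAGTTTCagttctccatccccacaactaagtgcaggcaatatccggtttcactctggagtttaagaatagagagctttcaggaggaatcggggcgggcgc
Ddx58 (chr4:40239776-40240075, minus strand): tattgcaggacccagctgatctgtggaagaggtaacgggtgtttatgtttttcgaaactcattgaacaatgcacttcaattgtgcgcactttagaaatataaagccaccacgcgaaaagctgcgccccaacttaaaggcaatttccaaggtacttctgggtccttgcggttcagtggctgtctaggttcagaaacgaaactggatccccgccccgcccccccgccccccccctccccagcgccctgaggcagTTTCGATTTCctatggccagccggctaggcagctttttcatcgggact
Irgm1 (chr11:48871371-48871670, minus strand): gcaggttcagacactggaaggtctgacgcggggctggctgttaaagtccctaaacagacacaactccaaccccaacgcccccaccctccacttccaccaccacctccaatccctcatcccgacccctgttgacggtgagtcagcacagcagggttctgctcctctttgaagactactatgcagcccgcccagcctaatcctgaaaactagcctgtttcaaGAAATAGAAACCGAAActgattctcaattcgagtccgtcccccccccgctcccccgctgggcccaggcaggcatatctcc
The match began 59 bases before the start site in Gbp2, 53 before it in Gbp7 and 30 before it in Irgm1, where 2 matches overlapped. In Ddx58 it lay just after the start. Of the 23 interferon-induced genes that were lower, 16 had a window, and 10 of these (62.5%) held a match. Over the whole list tested it was 27 of 56 (48.2%), and over all tested genes with a window 362 of 9785 (3.70%). Among all 387 genes that were lower, 24 of 296 with a window (8.11%) held one, and among all that were higher 8 of 127 (6.30%). The families of Gbp, Irg, Ly6 and Slfn genes hold close copies that can share reads. The GAS-type letters TTCNNNGAA were in 3 of the 16 windows (18.8%) and in 806 of all 9785 (8.24%). Such a match describes letters in the window and is not a measured binding site.

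**Figure D3:**
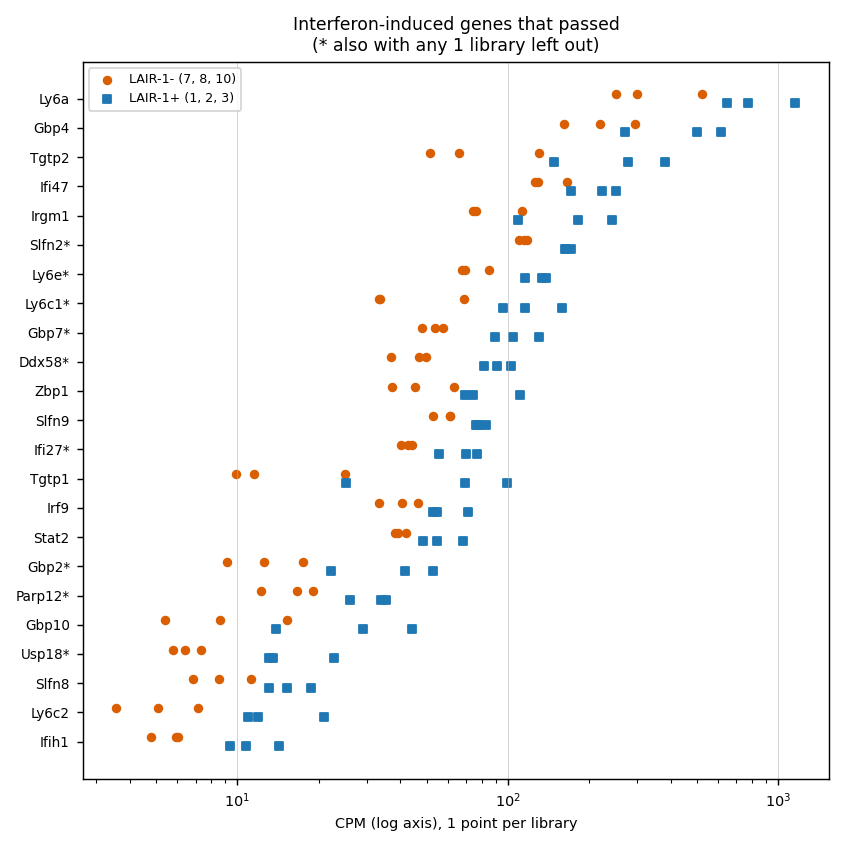
Level in CPM on a log axis of the 23 interferon-induced genes that passed, 1 point per library. Orange circles (LAIR-1-) sit left of blue squares (LAIR-1+) for nearly all genes. The groups overlap for Gbp4, Gbp10 and Irgm1.

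Of 13 interferon receptor and signalling genes, Usp18, Stat2 and Irf9 were lower, of which Usp18, a brake on the type I receptor, held. The 3 calls became 1 with library 8, 1 or 2 left out. Irf1, a factor that interferon induces, had 121, 69.7 and 81.5 CPM in LAIR-1- and 207, 171 and 109.9 CPM in LAIR-1+ libraries and did not pass (adjusted p 0.0566). Isg15, a defining member of the list, had 3.05, 3.10 and 1.91 CPM against 3.79, 2.54 and 3.37 CPM (log2 fold change -0.28, adjusted p 0.749). Ifng, which encodes interferon gamma, had 1.63, 0 and 0.104 CPM in LAIR-1- libraries and 11.1, 2.70 and 1.05 CPM in LAIR-1+ libraries. Its groups overlapped and it did not pass (adjusted p 0.143). Of its 6 values 5 lay below 3 CPM, and LAIR-1+ 1 alone was high. LAIR-1+ 1 was also the library with the highest Gbp2, Gbp7 and Irgm1. The part of Ifng in the result was not tested. Not every interferon-inducible gene fell. Ifitm3, a membrane protein that blocks virus entry and that was singled out after its values were seen, had 71.5, 73.96 and 73.7 CPM in LAIR-1- and 51.6, 50.5 and 53.9 CPM in LAIR-1+ libraries. It rose, with a log2 fold change of 0.49 (SE 0.08, adjusted p 0.005). Its neighbours Ifitm1 (1.08, adjusted p 0.0152) and Ifitm2 (0.68, adjusted p 0.0198) passed with all 6 libraries. Ifitm1 was at 0.053 without LAIR-1- 10 and 0.077 without LAIR-1+ 2. Ifitm2 was at 0.0570 to 0.0655 when library 8, 10 or 1 was left out.

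Soluble mediators split by type. Of 22 cytokine genes, Il10, Il4 and Il22 were higher and Csf2, Hbegf and Csf1 lower. Il4, the cytokine that drives IgE class switching, had 26.6, 31.5 and 24.9 CPM in LAIR-1- and 15.96, 14.3 and 14.3 CPM in LAIR-1+ libraries (log2 fold change 0.90, SE 0.13, adjusted p 0.00215). Hbegf, a membrane-bound ligand of the EGF receptor, had 4.05, 3.67 and 4.74 against 7.43, 9.70 and 9.69 CPM (-1.10, adjusted p 0.00878). Both ranges were separate. Il22 (3.63, 5.20 and 6.16 against 1.66, 2.46 and 1.67 CPM, adjusted p 0.0229) did not pass with library 8, 10, 1 or 3 left out, where its adjusted p was 0.062 to 0.11. Csf1 had an adjusted p of 0.0245, which became 0.051 to 0.10 with library 7, 8, 10, 1 or 2 left out. Il5, Il13 and the EGF-family ligand Areg did not pass, with log2 fold changes of -0.14, 0.37 and 0.16. Of 11 chemokine genes, 5 fell, all 11 had a negative log2 fold change, and the median was -2.06. Cxcl3, which draws neutrophils, had 9.52, 11.8 and 9.12 CPM in LAIR-1- and 21.1, 17.6 and 24 CPM in LAIR-1+ libraries (log2 fold change -1.05, adjusted p 0.00309). The other members that fell were Ccl2, Ccl4, Ccl6 and Ccl9, which macrophages also make, each at or below 1.21 CPM in every LAIR-1- library. Ccl6 had 0.158, 0.367 and 0.104 CPM in LAIR-1- and 6.06, 6.44 and 15.9 CPM in LAIR-1+ libraries. Ccl9 had 1.21, 0.105 and 0 CPM in LAIR-1- and 5.30, 7.23 and 16.1 CPM in LAIR-1+ libraries. Both were highest in LAIR-1+ 3, as was Chil3 above, and the part of myeloid cells in these chemokines was not tested. Ccl9 had an adjusted p of 0.104 by DESeq2. Pcsk1, which encodes the prohormone convertase that cleaves peptide precursors, was singled out as 1 of the 10 genes with the smallest p. It had 187, 166 and 214 CPM in LAIR-1- and 447, 515 and 424 CPM in LAIR-1+ libraries (log2 fold change -1.29, SE 0.10, adjusted p 6.55e-05).

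In the TNF family, 4 costimulatory receptors passed as higher and 1 death receptor as lower. Of 33 tested receptors and ligands, 28 did not pass, 18 had a negative log2 fold change and the median was -0.03. Tnfrsf8 (CD30), Tnfrsf9 (4-1BB), Tnfrsf18 (GITR) and Tnfrsf4 (OX40), all of them costimulatory, were higher. Tnfrsf21, the death receptor DR6, was lower. Tnfrsf8 had the smallest p of all 14261 genes: 229, 246 and 238 CPM in LAIR-1- and 90.2, 94.4 and 90.2 CPM in LAIR-1+ libraries, adjusted p 3.29e-06. Tnfrsf21 had 13.1, 8.82 and 14.2 against 25.8, 27.5 and 23.4 CPM (log2 fold change -1.08, SE 0.17, adjusted p 0.00357). Tnfrsf18 and Tnfrsf4 missed the threshold without 1 library: adjusted p was 0.056 for Tnfrsf18 without LAIR-1+ 1 and 0.052 for Tnfrsf4 without LAIR-1- 10. Cd48, the ligand of the receptor 2B4, was chosen after its values were seen and also rose. It had 160.4, 168 and 147 CPM in LAIR-1- and 89.6, 97.7 and 90.7 CPM in LAIR-1+ libraries (log2 fold change 0.77, SE 0.08, adjusted p 0.000227). Of 23 inhibitory receptors and ligands, 5 were higher and 4 lower, 15 had a negative log2 fold change and the median was -0.36. Of these 9 calls, 4 held: Lair1 itself lower, and Klrg1, Pecam1 and Ctla4 higher. With library 7 or 2 left out, 4 members passed. Pecam1 (CD31), which like LAIR-1 signals through inhibitory tyrosine motifs, had 40.3, 38.5 and 40.6 CPM in LAIR-1- and 23.4, 26.1 and 23.6 CPM in LAIR-1+ libraries (log2 fold change 0.71, SE 0.10, adjusted p 0.00215).

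Of 35 homing and tissue exit receptors, Ccr3, Ccr4, Ccr7 and S1pr1 rose. In all, 6 were higher, 2 lower and 27 did not pass, 19 had a negative log2 fold change, and the median was -0.01. That count of 8 dropped to 4 when LAIR-1- 7 was left out and to 5 when LAIR-1+ 2 was. Ccr3, the eotaxin receptor, had 10.6, 9.87 and 7.38 CPM in LAIR-1- and 1.70, 2.03 and 2.171 CPM in LAIR-1+ libraries. This was a log2 fold change of 2.23 (SE 0.23, 95% interval 1.72 to 2.73, adjusted p 0.000257), and the fractions were far apart with no overlap. S1pr1, which carries lymphocytes out of tissue along a lipid gradient, had 13.4, 19.9 and 13.5 against 5.26, 3.58 and 3.57 CPM. Ccr7, which guides cells to lymph nodes, had 22.9, 26.6 and 19.5 against 10.04, 10.3 and 11.9 CPM. Ccr2, the receptor for CCL2, went the other way with 370.1, 371 and 389 CPM in LAIR-1- and 469, 551 and 460.4 CPM in LAIR-1+ libraries. Its adjusted p of 0.0153 became 0.083 without LAIR-1- 7 and 0.058 without LAIR-1+ 2.

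Several receptors for neuropeptides and purines, and genes of the G protein machinery, were lower. Calcrl and Ramp1, which together form the receptor for the neuropeptide CGRP, both fell. Calcrl had 88.1, 83.6 and 99.6 CPM in LAIR-1- and 148, 193 and 149 CPM in LAIR-1+ libraries (log2 fold change -0.85, SE 0.11, adjusted p 0.00107). Ramp1 had 351, 389 and 340.2 against 586, 533 and 632 CPM (-0.70, SE 0.08, adjusted p 0.000503). Nmur1, the neuromedin U receptor that activates ILC2s, had 164, 162 and 169 against 239.5, 208 and 215 CPM (adjusted p 0.00727, and 0.052 without LAIR-1+ 1). Of 50 genes of G protein signalling, 7 were lower and Entpd1 was higher, and 5 held, all lower. Leaving out library 7 or 1 brought these 8 calls to 5. P2ry1, a receptor for extracellular ADP (chromosome 3, 61002795 to 61008982), had 88.1, 77.7 and 87.9 CPM in LAIR-1- and 177, 185 and 164 CPM in LAIR-1+ libraries (log2 fold change -1.05, SE 0.08, adjusted p 6.55e-05). Adora2b, a receptor for adenosine, had 22.8, 23.99 and 25.2 against 49.4, 46.5 and 55.3 CPM (-1.07, SE 0.11, adjusted p 0.000189). Both stood at about the same level in the 3 libraries of each fraction, with a wide gap between fractions. Rgs18, which speeds the shut-off of G proteins, had 30.1, 34.6 and 31.3 against 75.3, 69.5 and 72.9 CPM (-1.18, SE 0.09, adjusted p 6.55e-05). Rgs1, the best known regulator of this family in lymphocytes, did not pass, with a log2 fold change of 0.10 (adjusted p 0.575). Arrb1, a beta-arrestin that uncouples receptors, and Pde7a, which degrades cyclic AMP, fell by 0.51 and 0.61 on the log2 scale. The serotonin receptor Htr1b and the thrombin receptor family member F2rl2, both singled out after their values were seen, fell as well. Htr1b had 30.8, 30.9 and 31.6 CPM in LAIR-1- and 52.7, 57.6 and 42.9 CPM in LAIR-1+ libraries, and F2rl2 had 36.3, 32.2 and 31.8 against 56.4, 68.6 and 67.2 CPM.

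The wider list of ILC2 genes and alarmin receptors moved in both directions. Of 39 tested, 4 were higher and 9 lower, with a median log2 fold change of -0.15. Leaving out library 7 brought these 13 calls to 7, and leaving out library 1 to 6. Klrg1 and Neurl3 held among those higher, and Calcrl, Ramp1 and Il18rap among those lower. Il18rap, a subunit of the receptor for the alarmin IL-18, had 77.4, 60.3 and 81.2 CPM in LAIR-1- and 125, 135 and 107 CPM in LAIR-1+ libraries (log2 fold change -0.74, SE 0.12, adjusted p 0.00418). Neurl3, a ubiquitin ligase on the list, had 72.2, 76.2 and 75.1 against 33.7, 37.4 and 39.2 CPM (1.02, SE 0.09, adjusted p 0.000116). The libraries of the fractions did not overlap for either gene. Tph1, which encodes tryptophan hydroxylase of activated ILC2s, had 113, 117 and 135 against 104, 113 and 114 CPM and did not pass (adjusted p 0.466).

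Among 84 lymphoid transcription factors, 11 were higher and 5 lower, and 8 higher and 4 lower held. The other 68 did not pass, 47 of the 84 had a negative log2 fold change, and the median was -0.03. Those that rose and held were Lef1, Tox2, Nfil3, Msc, Myb, Ikzf3, Satb1 and Arid5a. Lef1 (chromosome 3, 131110471 to 131224356), the nuclear partner of beta-catenin, had 26.1, 26.1 and 26.9 CPM in LAIR-1- and 10.1, 9.18 and 8.45 CPM in LAIR-1+ libraries. Its log2 fold change was 1.52 (SE 0.13, 95% interval 1.24 to 1.79, adjusted p 7.48e-05). Myb, a factor of progenitor and proliferating lymphocytes, had 48.4, 44.6 and 48.7 against 28.2, 24.96 and 21.8 CPM (0.92, adjusted p 0.000799). Satb1, an organiser of chromatin in lymphocytes, had 12.9, 10.9 and 14.2 against 5.97, 5.41 and 4.15 CPM (1.30, adjusted p 0.00239). Nfil3, required for innate lymphoid cell development, had 81.9, 78.8 and 78.1 against 49.7, 46.3 and 49.4 CPM (0.72, adjusted p 0.000473). All 4 had separate ranges. Tox2, a relative of the innate lymphoid factor TOX, and Ikzf3, which encodes Aiolos, rose by similar amounts, with log2 fold changes of 0.74 and 0.75. Maf and Batf, factors that promote Il10 and Il4 transcription in T cells, had log2 fold changes of 0.47 and 0.53. Both were called with all libraries and missed the threshold without LAIR-1+ 2 (adjusted p 0.058 for Maf and 0.060 for Batf).

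The factors that fell were Klf3, Bhlhe40, Hlf, Nr1d1 and Bcl11b. Klf3, a repressor of the Krüppel-like family, had 20.3, 29.03 and 26.3 CPM in LAIR-1- and 51.6, 46.8 and 47.4 CPM in LAIR-1+ libraries (log2 fold change -0.95, SE 0.13, adjusted p 0.00161). Bhlhe40, a repressor of Il10 in T cells and macrophages, had 114, 115 and 121 against 159, 166 and 159.6 CPM (-0.47, SE 0.07, adjusted p 0.00235). Nr1d1, which encodes the clock repressor REV-ERB alpha, had 5.31, 5.56 and 7.21 against 11.7, 14.2 and 16.8 CPM (-1.23, SE 0.19, adjusted p 0.0033). Bhlhe40, Nr1d1 and Hlf all belong to or are driven by the circadian clock. Npas2, which encodes a partner of BMAL1 and was named after its values were seen, also fell, with 9.42, 9.40 and 11.9 CPM in LAIR-1- and 19.7, 21.2 and 20.6 CPM in LAIR-1+ libraries. The core clock genes Arntl and Cry1 had log2 fold changes of -0.07 and -0.01 (adjusted p 0.822 and 0.985), and Tef, a close relative of Hlf, had -0.39 (adjusted p 0.163). Bcl11b, which ILC2s need for their identity, had a log2 fold change of -0.39 and an adjusted p of 0.069 without LAIR-1- 7.

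**Figure D4:**
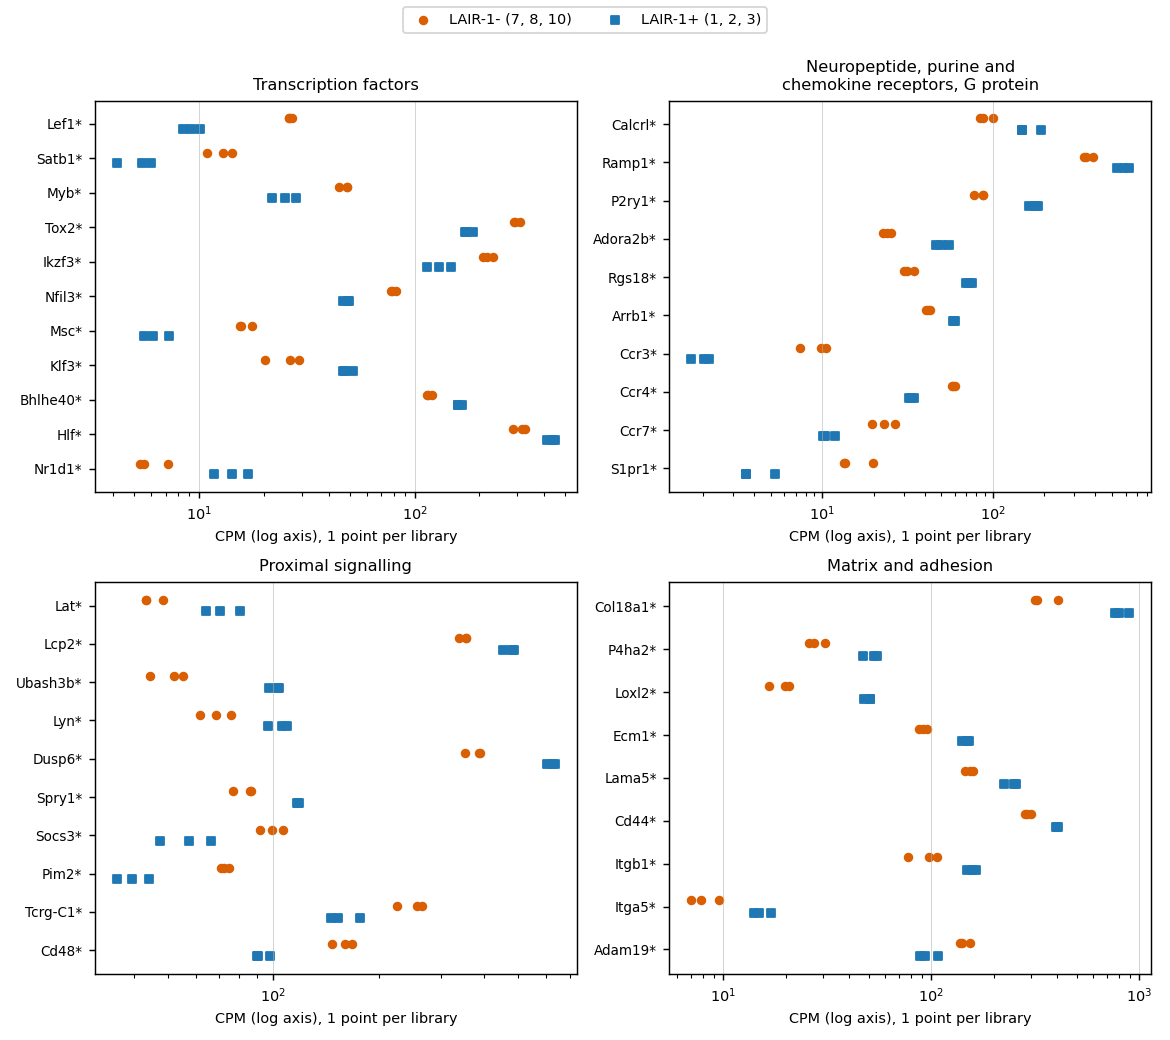
Level in CPM on a log axis of genes from 4 programs, 1 point per library, with orange circles for LAIR-1- and blue squares for LAIR-1+. In each panel the fractions do not overlap for any gene drawn. Genes were chosen for the drawing because they passed.

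The proximal signalling chain that T cells use, parts of which ILC2s share, changed at its adaptors. Of 52 tested members, 4 were higher and 3 lower. The 3 lower all held: the scaffold Lat, the adaptor Lcp2 (SLP-76) and the phosphatase Ubash3b. Lat had 48.6, 43.4 and 43.5 CPM in LAIR-1- and 64.3, 70.7 and 80.5 CPM in LAIR-1+ libraries (log2 fold change -0.67, SE 0.10, adjusted p 0.0032). Lcp2 had 355, 338 and 355 against 452, 479 and 486 CPM (-0.43, SE 0.06, adjusted p 0.00259). Ubash3b, which removes phosphate from ZAP-70 and SYK, had 44.4, 55.4 and 52.1 against 103, 104 and 97.1 CPM (95% interval -1.21 to -0.79 on the log2 scale, adjusted p 0.000148). The kinase gene Zap70 had a log2 fold change of -0.17 and did not pass (adjusted p 0.416). The tyrosine kinase Tec, picked after its values were seen, rose to 26.4, 23.3 and 25.6 CPM in LAIR-1- libraries, against 16.7, 13 and 15.5 CPM in LAIR-1+ libraries. T cell receptor gamma transcripts, which ILC2s can carry from early development, rose too. Tcrg-C1 had 257, 265 and 225 CPM in LAIR-1- and 152, 147 and 176 CPM in LAIR-1+ libraries, and Tcrg-C4 had 189, 172 and 172 against 127, 109.8 and 128 CPM. Whether those transcripts were rearranged cannot be read from gene counts. Gamma constant segments that are close copies can share reads, and how far this affects Tcrg-C1 or Tcrg-C4 was not tested. The invariant chains Cd3e (0.05, adjusted p 0.953) and Cd3g (0.32, adjusted p 0.209) did not pass.

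Feedback genes of the growth factor and cytokine pathways moved on both sides. Of 45 genes of the ERK and AP-1 response, 1 was higher and 5 lower. Dusp6 and Spry1, both inhibitors that ERK itself induces, fell together with the kinase Mapkapk3. Dusp6 had 387, 351 and 389.9 CPM in LAIR-1- and 636, 625 and 602 CPM in LAIR-1+ libraries (log2 fold change -0.72, SE 0.07, adjusted p 0.000148). Phlda1 rose, with 40.4, 48.7 and 41.95 against 19.5, 26.3 and 25.01 CPM. The immediate early gene Nr4a1 had a log2 fold change of -0.02 (adjusted p 0.974). Of 51 genes of the JAK-STAT list, 4 were higher and 4 lower. Socs3, the feedback inhibitor of STAT3-activating receptors, and the kinase Pim2 rose, and Csf2rb fell. Csf2rb, the shared signalling chain of the receptors for IL-3, IL-5 and GM-CSF, had 33.3, 33.8 and 29.9 CPM in LAIR-1- and 46.9, 85.2 and 69.8 CPM in LAIR-1+ libraries (log2 fold change -1.06, SE 0.17, adjusted p 0.00487). Myeloid cells express it strongly, and LAIR-1+ 2 was the highest library. The 8 JAK-STAT calls became 5 when LAIR-1- 7 was left out and 3 when LAIR-1+ 1 was. Sh2b3, the adaptor LNK that restrains JAK2 signalling and that was chosen after its values were seen, had 30.1, 31.2 and 35.7 against 66.96, 66.1 and 62.3 CPM (-1.01, SE 0.10, adjusted p 0.000188).

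Genes of matrix and adhesion were more often lower than higher in LAIR-1- cells. LAIR-1 is a collagen receptor, and 27 collagen and matrix genes were tested, of which 7 were lower and 1 higher. Of the 8, 7 held, and the median log2 fold change was -0.31. Col18a1 (chromosome 10, 77052178 to 77166548, minus strand), which encodes the basement membrane collagen that yields endostatin, had 314, 322 and 406 CPM in LAIR-1- and 763, 895 and 801 CPM in LAIR-1+ libraries. Its log2 fold change was -1.24 (SE 0.10, 95% interval -1.46 to -1.02, adjusted p 7.27e-05). P4ha2, which hydroxylates collagen prolines, had 25.9, 27.3 and 30.8 against 52.9, 46.98 and 55.1 CPM (-0.88, SE 0.11, adjusted p 0.000774). Ecm1, a secreted matrix protein, had 87.02, 91.5 and 95.7 against 152, 141 and 149 CPM (-0.69, SE 0.07, adjusted p 0.000346). Adam19, a membrane metalloprotease, was the member that rose, with 138, 139.8 and 154 against 88.5, 108 and 93.6 CPM. Spp1, Thbs1 and Plaur, which macrophages also express, were at lower levels. Spp1 (osteopontin) had 9.31, 8.19 and 10.2 CPM in LAIR-1- and 21.7, 15.6 and 33.2 CPM in LAIR-1+ libraries, and Thbs1 had 0.421, 0.367 and 0.696 against 2.65, 7.31 and 7.56 CPM.

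Further matrix genes, named after their values were seen, went the same way. Loxl2, which cross-links collagen, had 16.5, 19.8 and 20.7 CPM in LAIR-1- and 50.5, 50.5 and 47.3 CPM in LAIR-1+ libraries, with a log2 fold change of -1.38 (SE 0.11, adjusted p 7.27e-05). Lama5, a laminin chain, had 145, 153 and 158 against 249, 256 and 224 CPM, and Emilin2, an elastic fibre protein, 50.2, 53.3 and 57.3 against 87.9, 108 and 101 CPM. The heparan sulfate sulfotransferases Hs3st1 and Hs6st1 fell by 0.75 and 0.65 on the log2 scale. Among 46 integrin and adhesion genes, 3 were higher and 10 lower, of which 1 and 5 held, with a median of -0.28. Leaving out library 7 or 1 brought these 13 calls to 7, and leaving out library 10, 2 or 3 to 8. Itgb1 and Itga5, the chains of the fibronectin receptor, both fell. Itgb1 had 97.01, 77.3 and 106 CPM in LAIR-1- and 164, 148 and 156 CPM in LAIR-1+ libraries, and Itga5 had 9.52, 7.77 and 7.00 against 14.9, 16.97 and 13.96 CPM. Cd44, the hyaluronan receptor, fell by 0.47 on the log2 scale (adjusted p 0.00137). Cd9, a tetraspanin that myeloid and epithelial cells also carry, had 1.47, 1.47 and 0.905 against 5.21, 12.3 and 10 CPM.

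Of 18 granzyme and cytotoxic genes, 2 were higher and 2 lower, 14 had a negative log2 fold change and the median was -0.74. Gzma had 83.5, 98.7 and 93.4 CPM in LAIR-1- and 4.40, 7.27 and 17.8 CPM in LAIR-1+ libraries. Gzmb had 55.2, 62.4 and 46.8 against 11.5, 32.4 and 14.2 CPM (log2 fold change 1.50, SE 0.30, adjusted p 0.0143, and 0.052 without LAIR-1+ 1). Serpinb9, the intracellular inhibitor of granzyme B, fell, with 21.04, 20.7 and 18.1 against 43.9, 36.1 and 30.2 CPM (-0.88, SE 0.14, adjusted p 0.00445). Serpinb1a, an inhibitor of neutrophil proteases, had 109, 114 and 105 against 174, 199 and 205 CPM (-0.82, SE 0.08, adjusted p 0.000188). For both serpins all LAIR-1- libraries were below all LAIR-1+ libraries. Among markers of natural killer cells and type 1 cells, Ncr1 reached at most 0.731 CPM in LAIR-1- and 2.03 CPM in LAIR-1+ libraries, and Itga2 had 6.37, 7.14 and 6.06 against 2.51, 5.09 and 2.71 CPM. Of the 9 tested, Gzmb was the call, and 7 had a negative log2 fold change. The list summed to 58.1 to 71.9 CPM in LAIR-1- and 26.5 to 47.7 CPM in LAIR-1+ libraries, and without Gzmb to 9.47 to 15.01 CPM in LAIR-1- and 12.2 to 25.85 CPM in LAIR-1+ libraries.

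Genes typical of mast cells and granulocytes were mostly at lower levels in LAIR-1- cells. Of 19 tested, 17 had a negative log2 fold change and the median was -0.75. Tpsab1, Hdc, Alox5ap and Hpgds were lower, and Tpsab1 alone held. The tryptase Tpsab1 had 53.6, 43.05 and 68.9 CPM in LAIR-1- and 215, 211 and 211 CPM in LAIR-1+ libraries, about the same in each LAIR-1+ library. The protease Mcpt4 had 0.316, 1.31 and 1.15 against 3.60, 3.34 and 2.48 CPM, with no overlap and an adjusted p of 0.0538. Cma1 (chymase) had 17.05, 16.7 and 16.9 CPM in LAIR-1- and 9.14, 32.9 and 13.1 CPM in LAIR-1+ libraries, and Cpa3 (carboxypeptidase A3) had 23.1, 15.6 and 22.2 against 23.5, 52.2 and 25.4 CPM. Neither passed (adjusted p 0.914 and 0.194), and both were highest in LAIR-1+ 2. Hdc, which makes histamine, had 0.789, 0.157 and 0.870 against 3.22, 4.37 and 2.64 CPM, with an adjusted p of 0.0146 that became 0.077 without LAIR-1+ 2. Leaving out library 7, 1 or 2 brought the 4 calls to 2.

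Lists of energy metabolism and protein synthesis differed in the share that passed, which was 4.01% over all genes tested. By edgeR, 0 of 49 nuclear-encoded genes of the respiratory chain, 0 of 76 cytosolic ribosomal protein genes and 0 of 13 mitochondrially encoded mRNAs passed. Their medians were 0.10, 0.09 and -0.01 on the log2 scale, and 44, 74 and 6 members had a positive log2 fold change. At an unadjusted p under 0.05, 8, 1 and 0 of them passed, all of them higher, against 2196 of all 14261 genes in either direction. DESeq2 and limma-voom each called 1 respiratory chain gene and 0 of the other two lists. Of 45 genes of glycolysis and hypoxia, 3 were lower and 1 higher (8.89% together), or 2 in all with LAIR-1+ 1 left out. Hk2, the inducible hexokinase that starts glycolysis, had 45.3, 43.5 and 50.9 CPM in LAIR-1- and 73.4, 79.8 and 76.1 CPM in LAIR-1+ libraries (log2 fold change -0.71, SE 0.09, adjusted p 0.000971), whereas Ldha, lactate dehydrogenase, did not pass (0.10, adjusted p 0.429). G6pdx, the entry enzyme of the pentose phosphate pathway, fell, with 328, 308 and 345 against 466, 486 and 475 CPM (-0.54, SE 0.07, adjusted p 0.000774). Hadh, an enzyme of fatty acid oxidation, rose, with 131, 118 and 129 against 88.3, 93.1 and 94.3 CPM (0.45, SE 0.08, adjusted p 0.00534). Elovl6, which lengthens fatty acids, also rose, with 11.1, 15.2 and 12.5 against 5.82, 6.36 and 7.48 CPM. Of 44 genes of lipid oxidation and storage, 5 were higher and 3 lower (18.2% together), or 5 in all with LAIR-1+ 1 left out. The lowest of these, Lpl, which foam cells and alveolar macrophages express, had 1.84, 2.73 and 0 CPM in LAIR-1- and 10.7, 14.1 and 29.2 CPM in LAIR-1+ libraries and an adjusted p of 0.262 by DESeq2.

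Amino acid handling changed at single genes. Slc7a8, an exchanger of large neutral amino acids that ILC2s express strongly, had 924, 906 and 992 CPM in LAIR-1- and 1404, 1537 and 1495 CPM in LAIR-1+ libraries (log2 fold change -0.65, SE 0.06, adjusted p 0.000188). Slc7a3, a carrier of arginine and lysine, rose, with 32.9, 27.8 and 26.5 against 18.4, 17.97 and 18.5 CPM (0.66, adjusted p 0.00815). Cth, which makes cysteine from cystathionine, had 5.05, 5.30 and 5.81 against 1.23, 0.755 and 1.94 CPM (2.04, SE 0.33, adjusted p 0.00486), and the polyamine oxidase Smox had 119.7, 129.9 and 140.3 against 95.7, 94.2 and 89.4 CPM. Of 45 transporters, 2 were higher and 3 lower. Of 55 genes of the citric acid cycle and amino acid metabolism, 3 were higher and 1 lower, and 2 held, Cth and Smox. Those 4 calls became 2 with any library but LAIR-1- 8 left out.

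Aldo-keto reductases of the Akr1c cluster fell together. Akr1c13 (chromosome 13, 4191150 to 4205596) was among the 10 smallest p, and its neighbours were named after their values were seen. Akr1c13 had 98.9, 95.2 and 96.6 CPM in LAIR-1- and 175, 187 and 205 CPM in LAIR-1+ libraries (log2 fold change -0.97, SE 0.08, adjusted p 6.71e-05). Akr1c12 had 8.21, 5.56 and 6.27 against 14.3, 15.1 and 14.9 CPM. Akr1c18, which inactivates progesterone, had 0.789, 0.420 and 0.975 against 2.84, 4.05 and 4.07 CPM. These genes are close copies, so reads can be shared between them. Txnip, which restrains thioredoxin and glucose uptake, also fell, by 0.68 on the log2 scale (adjusted p 0.0013). Of the 38 genes of redox defence, 6 were lower and 1 higher, of which 3 held, among them Cybb, a gene of phagocytes, whose part from such cells was not tested. Leaving out library 7 brought the 7 redox calls to 3, and leaving out library 1 or 3 to 4. Among 52 lysosome and autophagy genes 7 were lower and 1 higher, and 5 held. Of those that fell, Atp6v0d2, Cd63 and Grn are genes that macrophages also express, and the part of such cells was not tested. Atp6v0d2 had 0.158, 0.367 and 0 CPM in LAIR-1- and 1.66, 2.58 and 3.53 CPM in LAIR-1+ libraries. Ctsd, an aspartic protease, fell to 549, 575 and 545 CPM in LAIR-1- libraries, against 697, 737 and 723 CPM in LAIR-1+ libraries, and Ctsh, a cysteine protease, rose to 63.3, 60.6 and 61.7 CPM, against 38.3, 29.8 and 33.7 CPM. With library 10 or 1 left out, 5 lysosome genes passed.

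Shares that passed were 7.27% for apoptosis and survival genes and 4.17% for cell cycle genes, against 4.01% of all genes tested. Of 55 apoptosis and survival genes, 3 were higher and 1 lower, or 2 in all with library 10 or 1 left out. Pmaip1, which encodes the BH3-only protein NOXA, rose, with 43.6, 44.9 and 39.2 CPM in LAIR-1- and 23.9, 19.04 and 20.3 CPM in LAIR-1+ libraries (log2 fold change 1.01, SE 0.12, adjusted p 0.00052). Mlkl, the pore-forming effector of necroptosis, fell, with 97.96, 91.1 and 101 against 165, 151 and 144 CPM (-0.67, SE 0.08, adjusted p 0.000611). The survival genes Bcl2 and Mcl1 did not pass, with log2 fold changes of -0.06 and -0.20. Of 72 cell cycle genes, 2 were higher and 1 lower, and Cdk6, the kinase of early G1 phase, held. With library 7, 10, 1 or 2 left out, 1 passed. Cdk6 had 238, 260.2 and 219 CPM in LAIR-1- and 168, 162 and 179 CPM in LAIR-1+ libraries (log2 fold change 0.49, adjusted p 0.00484). Mki67, a marker of cycling cells, had 512, 505 and 503 against 571, 549.6 and 549.8 CPM and did not pass (-0.14, adjusted p 0.301).

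**Figure D5:**
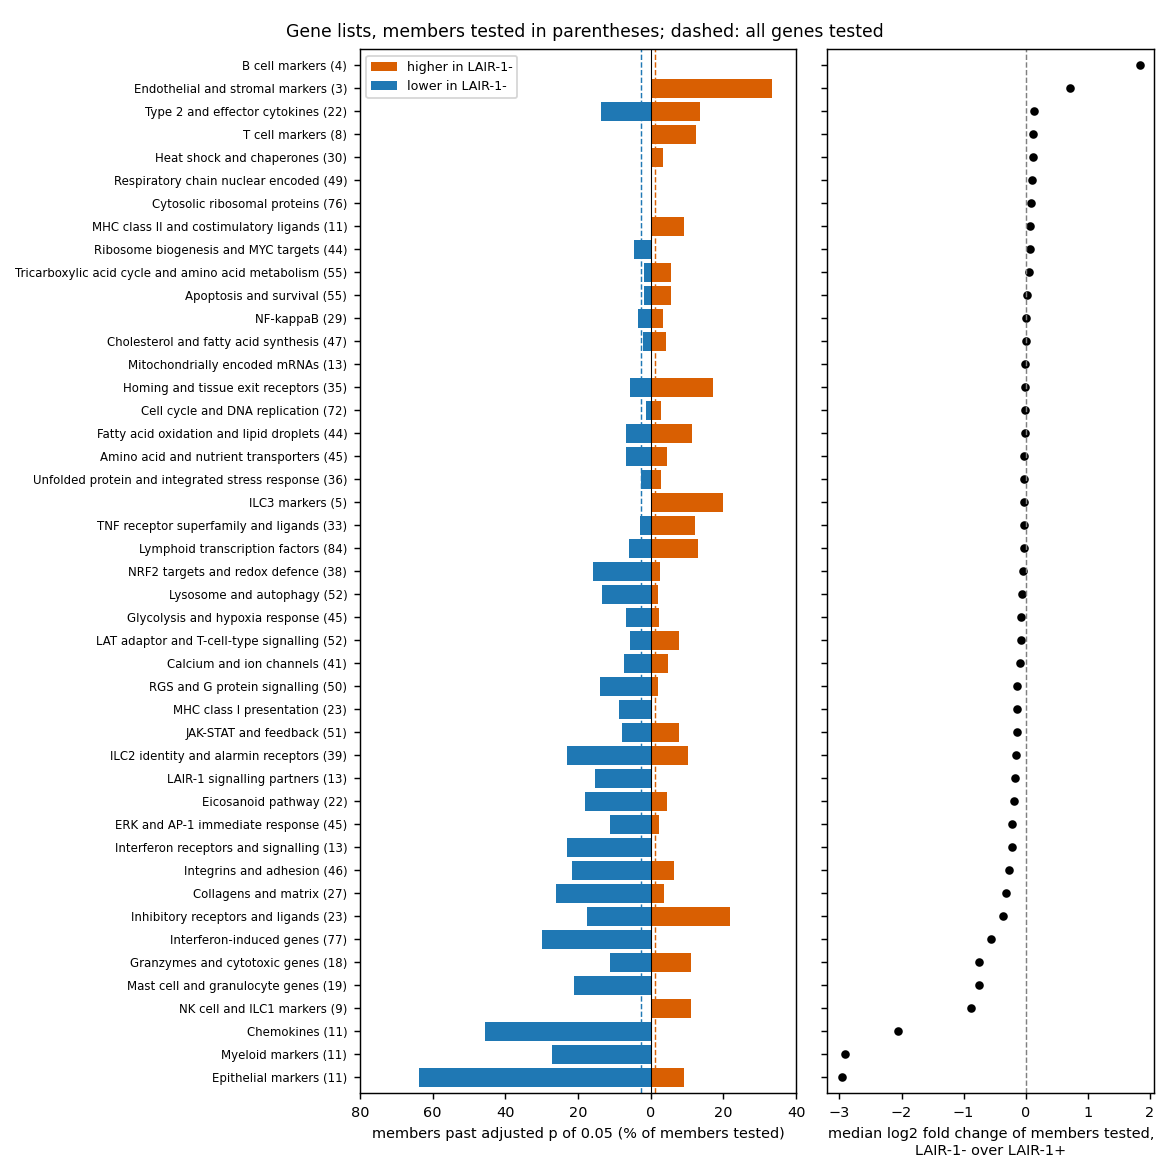
For each gene list drawn (members tested in parentheses), the left panel gives the percent of members past an adjusted p of 0.05, higher in LAIR-1- (orange, right of 0) or lower (blue, left of 0). The right panel gives the median log2 fold change of the members, LAIR-1- over LAIR-1+. Dashed lines are the values over all 14261 genes tested. Interferon-induced genes, chemokines and epithelial markers extend far to the left, while respiratory chain and ribosomal protein genes show no bar.

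The largest changes among genes with a mean of at least 3 log2 CPM and no overlap between groups, 15 in each direction, included genes outside these groups. Il10 led those that rose, with 16.6, 25.1 and 14.3 CPM in LAIR-1- and 1.18, 1.75 and 1.24 CPM in LAIR-1+ libraries. Ldoc1, a gene derived from a retrotransposon, had 22.2, 15.8 and 15.9 against 1.47, 5.21 and 5.54 CPM, and B4galnt4, which modifies sugar chains, 30.7, 29.9 and 34.3 against 9.47, 11.7 and 14 CPM. Msc, the helix-loop-helix factor musculin, had 15.7, 15.5 and 17.5 CPM in LAIR-1- and 7.24, 6.08 and 5.54 CPM in LAIR-1+ libraries. Hspa2, a heat shock protein of the HSP70 family, had 12.6, 16.2 and 13.4 against 6.53, 5.76 and 5.08 CPM (log2 fold change 1.28, SE 0.17, adjusted p 0.00137), and Acpp, prostatic acid phosphatase, had 16.6, 12.6 and 16.1 against 7.20, 4.89 and 6.63 CPM. That the fractions were separate for each of these follows from the choice, which required no overlap. Of those that fell, Scgb1a1, Lyz2 and Lpl are the epithelial and myeloid transcripts given above. Cetn4, a centrin, had 7.68, 6.30 and 8.63 CPM in LAIR-1- and 19.1, 17.6 and 21.8 CPM in LAIR-1+ libraries, and Sh3bgrl2 had 42.98, 30.3 and 46.1 against 109, 100.1 and 109 CPM. Tgtp1 and Tgtp2, interferon-induced GTPases, varied widely within LAIR-1+: Tgtp2 had 130.1, 51.5 and 65.7 CPM in LAIR-1- and 381, 277 and 148 CPM in LAIR-1+ libraries. With library 8, 10, 1 or 2 left out, the adjusted p of Tgtp2 was 0.053, 0.072, 0.078 or 0.054.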

How the data were processed

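RNA sequencing of sorted lung ILC2s was analysed from the 6 libraries of the LAIR-1 sort, each made from 10 ng of RNA; the other 6 of the 12 were not used here. The authors deposited estimated counts per gene and, in a second table, CPM scaled to a total per library. Per the submitters' processing notes, bcl2fastq 2.17.1.14, Partek and STAR 2.5.3a were used with mm10; what counted the reads, on which annotation, is not given in the sources used here. Of the counts, 44.4% were not whole within 0.001, as sharing reads between genes gives. The columns list 88.1% to 90.0% of the authors' scaling total. Of 21361 symbols, 20 had become dates and 19 were restored by position in GENCODE M21. Ends are given 1 base lower than deposited, to match that annotation.

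Counts were rounded, filtered with filterByExpr, scaled by TMM and tested in edgeR 4.0.16 (R 4.3.3) by its quasi-likelihood F test, p-values being adjusted after Benjamini and Hochberg over 14261 genes. SEs come from the F statistic. CPM in the text are TMM-scaled. The code was tested on simulated data. The members and 46 gene lists were chosen with earlier results of these data known. Genes named are Lair1, per list up to 6 that passed by smallest p and best-known members, the 15 highest and 15 lowest fold changes (mean of at least 3 log2 CPM, no overlap), the 10 smallest p, and others said to be chosen after their values were seen. Alternatives were other scalings, filters, DESeq2 1.42.0, limma-voom 3.58.1 and each library left out. A few genes and 1 list are not reported here. Motifs were searched in RefSeq windows on GRCm38.p6, matched by symbol. Intervals and floors cover counting error or the spread between these samples only.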

Additional observations from a re-analysis of the deposited data

How the results depend on the processing

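Against 572 genes (185 higher, 387 lower), median-of-ratios size factors gave 575, library totals 526, leaving the filter out 557, a floor of 5 CPM on the mean 543, limma-voom 671 and DESeq2 862, of which 590 were lower. DESeq2 included 559 of the 572. With 1 library left out, the range was 333 to 516 in all, 104 to 161 higher and 229 to 355 lower; members of any gene list that passed, 207 with all libraries, ranged over 135 to 197. The median log2 fold change of each gene list was summarised as 1 median over the genes of all lists together. It was -0.03 and became -0.00557 with library totals, -0.0501 unfiltered, -0.0159 with that floor and -0.0487 by DESeq2. It ranged over -0.0513 to -0.0303 with 1 library left out. The cause was not tested. The log2 fold change of Lair1 ranged over -3.72 to -2.82 and passed each time. Of 273 named genes, 0 had a call that reversed in sign under any alternative. Sign changes of genes past the threshold in neither fit were not counted. Of the 156 that passed with any library left out, 151 also passed under each other alternative run on them. Scgb1a1 missed it by limma-voom (adjusted p 0.172) and Ccl9, Gpnmb, Lpl and Lyz2 by DESeq2 (0.104 to 0.416). No paired analysis was possible because the fractions share no replicate number in the labels. Genes of a few CPM rest on few reads, and a difference there may not be detectable at this depth.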

Other observations

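Further genes outside the groups above also differed, all chosen after their values were seen. St3gal6, a sialyltransferase that helps build selectin ligands, had 9.36, 11.2 and 7.66 CPM in LAIR-1- and 2.46, 2.15 and 2.48 CPM in LAIR-1+ libraries (log2 fold change 1.99, SE 0.22, edgeR adjusted p 0.000413). Zfp36, which encodes tristetraprolin and speeds the decay of cytokine mRNAs, had 31.7, 37.2 and 32.03 against 20.5, 21.1 and 20.5 CPM (0.70, SE 0.11, adjusted p 0.0038). Gatm, the first enzyme of creatine synthesis, had 34.7, 33.8 and 29.1 against 20.6, 17.4 and 19.2 CPM. All 3 rose with any library left out. Upp1, which splits uridine, fell, with 26.1, 27.1 and 23.7 CPM in LAIR-1- and 60.8, 49.3 and 58.9 CPM in LAIR-1+ libraries (-1.14, SE 0.11, adjusted p 0.000188). Vav3, a guanine nucleotide exchange factor of the VAV family, had 6.00, 4.93 and 6.93 against 12.5, 12.96 and 12.2 CPM, and Rasgrp4, an exchange factor for Ras known from mast cells, 7.26, 8.45 and 7.35 against 16.95, 13.4 and 13.5 CPM. Hsd11b1, which regenerates active glucocorticoid, had 13.05, 15.1 and 12.4 against 21.2, 22.6 and 25.5 CPM (-0.78, SE 0.13, adjusted p 0.00635). These 4 fell with any library left out.

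Antigen presentation and stress lists had shares near or above the 4.01% of all genes tested that passed. These were 8.70% for MHC class I, 5.56% for the unfolded protein response, 6.90% for NF-kappaB and 3.33% for chaperones. Of 23 genes of MHC class I presentation, 2 were lower, and H2-T24 held, with 3.10, 3.04 and 3.55 CPM in LAIR-1- and 8.81, 9.50 and 6.75 CPM in LAIR-1+ libraries. The classical gene H2-D1 had a log2 fold change of -0.13 (adjusted p 0.632). With library 8, 10 or 1 left out 1 of the 23 passed, and with library 2 left out 4 did. Of 36 genes of the unfolded protein response 1 was higher and 1 lower, and Stc2, a secreted glycoprotein of that response, held, with 29.4, 29.9 and 28.7 against 44.98, 44.3 and 47.03 CPM. Of 30 chaperones 1 was higher, with a median log2 fold change of 0.12. That list leaves out Hspa2, which rose and is given above. Of 29 NF-kappaB genes 1 was higher and 1 lower, and Bcl3 held. The calls of the unfolded protein and NF-kappaB lists became 1 each with LAIR-1+ 1 or 2 left out, and the chaperone call was lost with any library but LAIR-1- 10 left out.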
